A study of Homo sapiens with 6 samples.

Results

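SRXN1, PRDX1 to PRDX6, TXN, TXN2 and TXNRD1 encode peroxiredoxins, which reduce hydrogen peroxide, and enzymes that restore or supply them with electrons. These 10 genes were followed among the 60671 gene IDs of the count table. SRXN1 was chosen by its measured values: it had one of the largest decreases in the AAA mutant when libraries with the same replicate number were treated as pairs. The other 9 genes belong with it by family and pathway and were listed with earlier results of these libraries known. Differences between mutant and control are therefore given for SRXN1 as a description, without a test.

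RNA was precipitated with an antibody against a myc tag after calcium phosphate transfection of HEK cells, which stem from human embryonic kidney, and it was sequenced once ribosomal RNA had been removed. The 3 wild-type control libraries are labelled untreated, with SYNJ2BP binding RNA as their source, and the 3 AAA mutant libraries carry the same source with the AAA mutant of SYNJ2BP. SYNJ2BP is a protein of the outer mitochondrial membrane, and the series asks how its mutation affects the RNA that it binds. Only the mutant library names hold the word mito, which is not explained, and the groups could thus differ in more than the mutation. The labels name neither the construct in the control cells nor separate cultures. The p-values therefore reflect the spread among the 6 libraries, possibly a technical one. Where libraries with the same replicate number were treated as pairs, they reflect the spread left after differences between replicate numbers were removed. Input RNA was not analysed here, so that less of an RNA in the cells and a smaller share of it in the precipitate cannot be told apart.

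Peroxiredoxins reduce hydrogen peroxide with a reactive cysteine, which becomes oxidized and is restored by thioredoxin. Thioredoxin is in turn reduced by a thioredoxin reductase that draws on NADPH and carries a selenocysteine. At high peroxide the cysteine of the typical peroxiredoxins is oxidized further to a sulfinic acid, and sulfiredoxin, the product of SRXN1, reverses this step at the cost of ATP. PRDX1 and PRDX2 are cytosolic, PRDX3 is mitochondrial, PRDX4 belongs to the endoplasmic reticulum, and PRDX5 is found in mitochondria, peroxisomes and cytosol. PRDX6 lacks a second catalytic cysteine and relies on glutathione. TXN and TXNRD1 act in the cytosol and TXN2 in mitochondria. SRXN1, PRDX1, TXN and TXNRD1 are known targets of the transcription factor NRF2.

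The coding stretches around the catalytic residue are shown because they define the families whose RNAs are compared. They were read 5′ to 3′ from the GENCODE release 29 transcripts, with the codon of the catalytic residue in capitals. That codon was residue 99 of 137 in SRXN1, 52 in PRDX1, 51 in PRDX2, 108 in PRDX3, 124 in PRDX4, 100 in PRDX5 and 47 in PRDX6. It was residue 32 of 105 in TXN and 90 of 166 in TXN2. In TXNRD1 it was the TGA read as selenocysteine, residue 498 of 499.
SRXN1, chr20:648816-648854, minus strand: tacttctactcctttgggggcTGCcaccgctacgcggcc
PRDX1, chr1:45515743-45515781, minus strand: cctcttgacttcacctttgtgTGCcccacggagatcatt
PRDX2, chr19:12801005-12801043, minus strand: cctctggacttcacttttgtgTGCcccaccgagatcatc
PRDX3, chr10:119173845-119174461, minus strand, across an intron: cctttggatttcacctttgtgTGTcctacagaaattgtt
PRDX4, chrX:23671636-23675017, plus strand, across an intron: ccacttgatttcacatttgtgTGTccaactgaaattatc
PRDX5, chr11:64319839-64320669, plus strand, across an intron: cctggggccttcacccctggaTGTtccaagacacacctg
PRDX6, chr1:173481348-173481386, plus strand: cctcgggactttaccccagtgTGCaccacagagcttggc
TXN, chr9:110251376-110251414, minus strand: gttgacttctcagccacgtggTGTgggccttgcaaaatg
TXN2, chr22:36476835-36480591, minus strand, across an intron: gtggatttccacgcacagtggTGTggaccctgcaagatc
TXNRD1, chr12:104348392-104348418, plus strand: agcatcctccaggctggctgcTGAggt

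PRDX1 and PRDX2 shared 35 of the 39 bases, and the 4 typical peroxiredoxins shared 29 to 35 with each other. PRDX5 stood furthest from the rest, with 17 to 21 of 39 bases shared. TXN and TXN2 shared 27 of 39. The genes thus differ even in their most conserved stretch, and reads could be told apart between members: no run of 50 bases was common to the transcripts of 2 members.

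The libraries differed more by replicate number than by group. Totals ran from 3287218 to 73331652 counts. Counts per base over 388 olfactory receptor genes, which are little transcribed in most cells, gave the background of each library. The background made up 37.9%, 84.4% and 7.46% of nuclear gene counts in control replicates 1, 2 and 3, and 55.4%, 81.6% and 6.60% in the mutant. Both replicate 2 libraries therefore held little signal, and values from them are weak throughout. Of 6 genes typical of HEK cells, 5 lay over 8 times above background in both replicate 3 libraries, VIM at 253 and 186 times. The kidney gene PAX2 did not, at 2.88 times in the control and 4.33 times in the mutant. Of 7 markers of other cell types, 5 lay under 2 times background there. The collagen gene COL1A1 lay at 16.9 and 17.4 times, and the astrocyte marker GFAP at 5.47 and 5.16 times. The part of such cells in the results was not tested.

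SRXN1 RNA (ENSG00000271303, chromosome 20, 646615 to 653370) was recovered far less with the mutant in pairs 1 and 3. In pair 2, where most SRXN1 counts were background, the value was slightly lower, and such counts cannot show a decrease. It had 42.0, 3.62 and 108 CPM (counts scaled to library size with the factors of the fit) in control replicates 1, 2 and 3. In mutant replicates 1, 2 and 3 it had 5.24, 3.00 and 15.6 CPM. The group means were 51.2 ± 52.8 and 7.93 ± 6.70 CPM (SD, n = 3). The groups overlapped only because control replicate 2, mostly background, lay below mutant replicates 1 and 3. The log2 fold change was −2.67 ± 1.12 (SE, n = 3 per group) without pairs and −2.42 ± 0.33 with the replicate number as a block, a 5.36-fold lower level. The differences in log2 CPM were −2.99, −0.27 and −2.79 in pairs 1, 2 and 3. Without pairs 1, 2 and 3 in turn, the blocked value was −2.02, −2.71 and −2.00. The value without pairs rested on single libraries: it was −1.30 without control replicate 3 and −3.59 without mutant replicate 3.

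**Figure D1:**
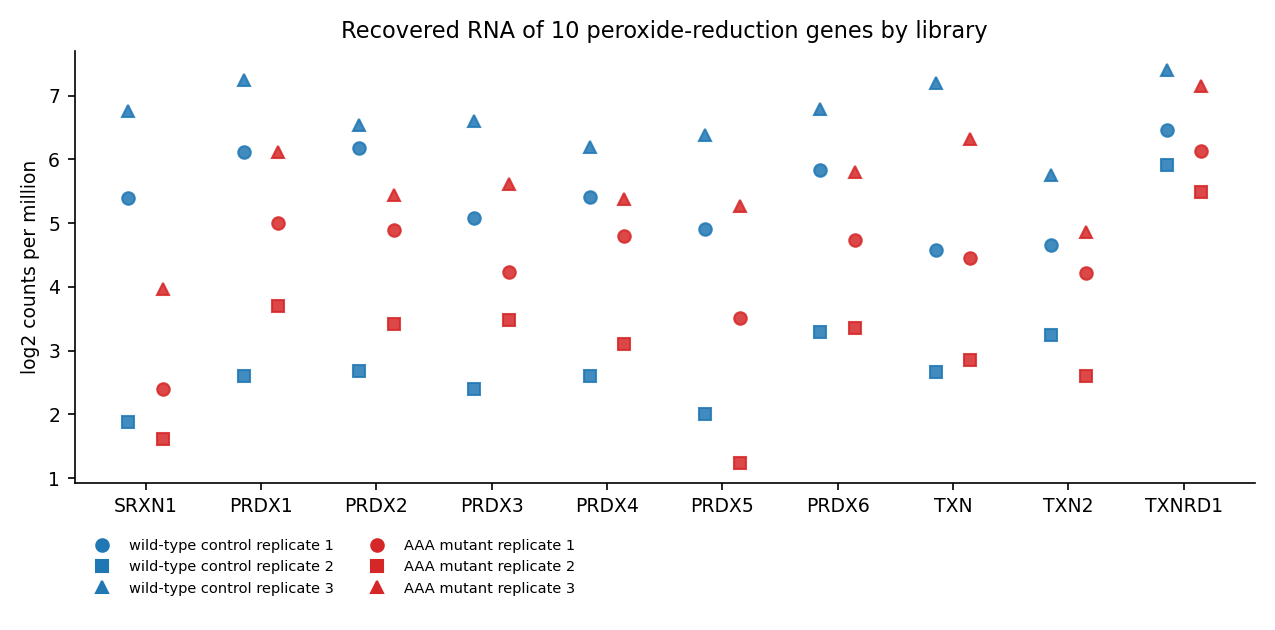
Log2 CPM of the 10 genes in each library; blue symbols are wild-type control and red symbols AAA mutant libraries, and the shape gives the replicate number. SRXN1 lay at 5.39 and 6.76 in control replicates 1 and 3 and at 2.40 and 3.96 in the mutant. It was chosen on this contrast, so its gap is a description.

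A ratio taken within a library does not depend on the scaling between libraries. For every 100 counts of PRDX1 to PRDX6 together, SRXN1 had 13.8, 9.68 and 17.7 counts in control replicates 1, 2 and 3. It had 3.59, 5.39 and 5.24 in the mutant. The 3 control values lay above the 3 mutant values, but in replicate 2 most SRXN1 counts were background. Only 21.9 of 54 counts in the control and 4.01 of 13 in the mutant lay above it there, so that the replicate 2 ratios are weak. With background taken off both genes and family, the ratio was 13.9, 8.89 and 17.8 in the control and 2.80, 2.61 and 5.18 in the mutant. Since SRXN1 was chosen on this contrast, the separation is a description.

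SRXN1 lies almost wholly inside a longer annotated gene on the same strand, AL121758.1 (ENSG00000270299, chromosome 20, 646626 to 675800), which also overlaps SCRT2, a gene for a neuronal transcriptional repressor. This gene had 652, 176 and 4560 counts in the control and 82, 67 and 917 in the mutant. SRXN1 itself had 583, 54 and 4485 against 46, 13 and 838. The part of AL121758.1 outside SRXN1 thus held 69, 122 and 75 counts in the control and 36, 54 and 79 in the mutant, if each SRXN1 read was counted for both genes. That is 0.787 to 1.81 times background over 22430 bases. SCRT2 lay at 0.832 to 1.55 times background. The signal, and the difference between groups, was therefore found inside the SRXN1 span, and which of the 2 gene models it belongs to cannot be read from the counts there.

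**Figure D2:**
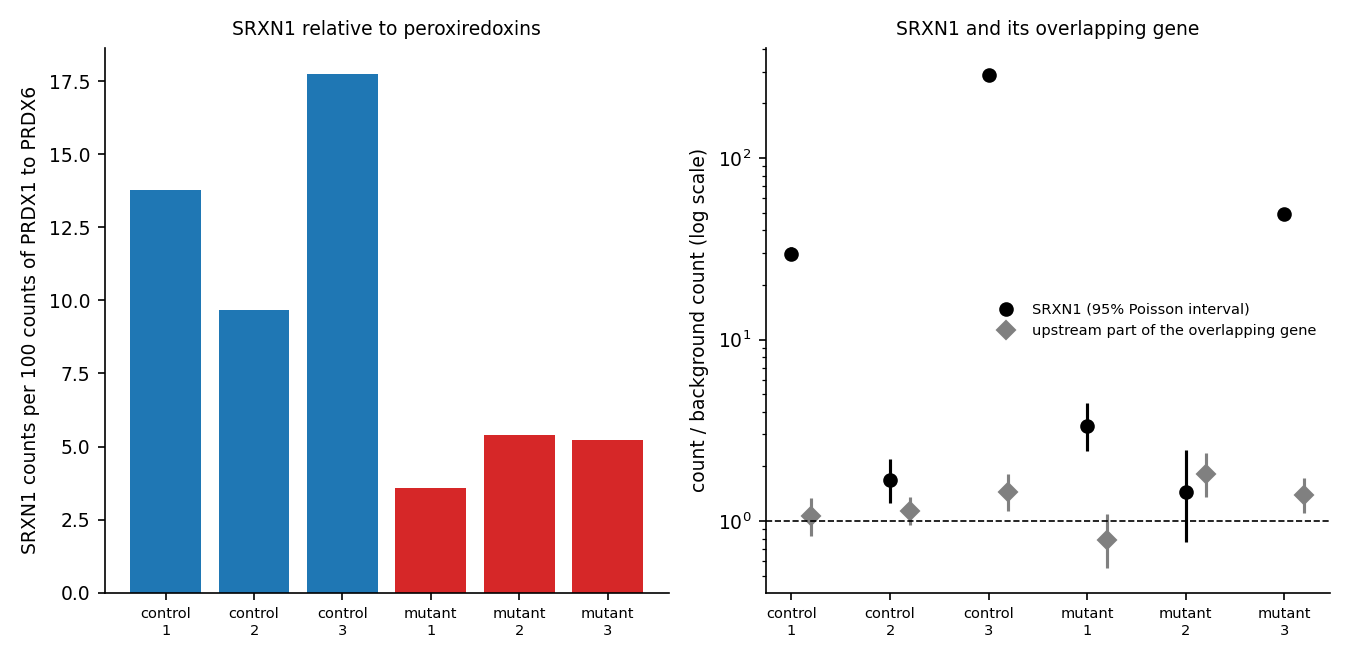
Left, SRXN1 counts per 100 counts of the 6 peroxiredoxins in each library; right, count divided by background count on a log scale for SRXN1 (black, 95% exact Poisson interval) and for the part of the overlapping gene outside SRXN1 (grey, same interval), with a dashed line at background. SRXN1 stood 288 and 49.0 times above background in control and mutant replicate 3, while the part outside it stayed between 0.787 and 1.81 times.

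In replicate 2, SRXN1 rested on 54 control and 13 mutant counts, or 1.68 (95% exact Poisson interval 1.26 to 2.19) and 1.45 (0.770 to 2.47) times background. These intervals cover counting error only. The mutant value could not be told from background at this depth. In replicate 1 it lay at 29.8 and 3.34 times background in control and mutant. Its drop in pair 1 thus ended close to background, while pair 3 compared 2 levels far above it.

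Without pairs, edgeR's quasi-likelihood test called none of the 33375 tested genes (0%) and none of the 10 members, with 25 genes at an unadjusted p under 0.05. DESeq2 and limma-voom also called 0 genes. With the replicate block, 2 of the 10 members were called lower, SRXN1, which was chosen for this, and PRDX5. Over all tested genes 467 were called lower (1.4%) and 2 higher (0.00599%). Without pair 3 no gene was called in either direction, and without pair 1 the count was 37. Of the 4629 tested genes whose counts lay far above background, meaning more than 8 times on average over the libraries, 379 were called lower (8.19%). Among the 9 members besides SRXN1, all tested and 7 of them far above background, 1 was called lower and 0 higher, a share near that of other genes at such levels. The median blocked log2 fold change of these 9 was −0.53, against −0.08 for all tested genes. For the 7 far above background it was −0.67, against −0.51 for all tested genes at such levels. Lower values in all 3 pairs were seen for 3 of these 9 genes and for 2 of those 7. The share was 39.1% of genes far above background.

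**Figure D3:**
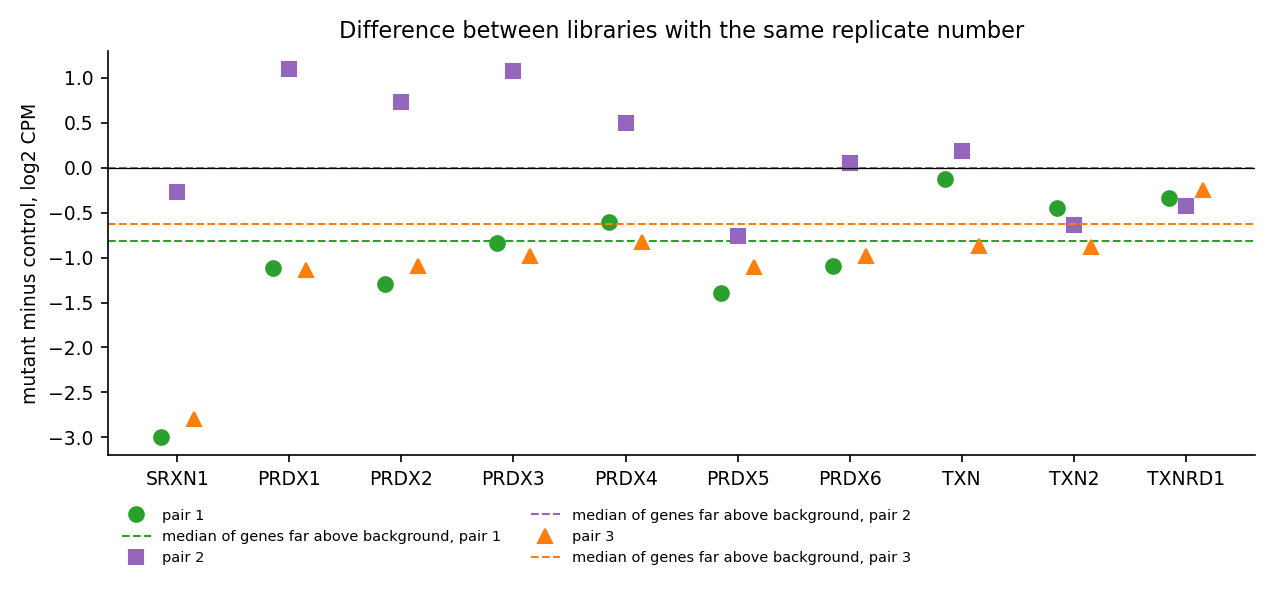
Mutant minus control in log2 CPM for each gene in pairs 1, 2 and 3 (libraries with the same replicate number); dashed lines give the median over tested genes far above background in each pair, at −0.81, 0.00 and −0.63. SRXN1, which was chosen on this contrast, lay near −3 in pairs 1 and 3. The other 9 genes lay between −1.40 and −0.13 in those pairs.

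The typical peroxiredoxins, the substrates of sulfiredoxin, did not pass the test. PRDX1 (ENSG00000117450, chromosome 1, 45511036 to 45523047) had 69.2, 6.03 and 152 CPM in the control and 31.9, 12.9 and 68.9 CPM in the mutant. It was lower in pairs 1 and 3, by 1.12 and 1.14 on the log2 scale, and higher by 1.09 in pair 2, where 90 and 56 counts were compared. Its blocked log2 fold change was −0.53 ± 0.31 (SE, n = 3 pairs; adjusted p = 0.667), at the median of genes far above background.

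PRDX2 (ENSG00000167815, chromosome 19, 12796820 to 12801859) followed the same course. It had 72.5, 6.37 and 92.9 CPM in the control and 29.6, 10.6 and 43.5 CPM in the mutant, and the blocked value was −0.68 ± 0.29 (adjusted p = 0.354). Its counts cannot be assigned to a strand. The antisense gene AC018761.2, with 296 bases of exon but nearly the same span, had 1009, 95 and 3880 counts in the control, where PRDX2 had 1007, 95 and 3855. HOOK2, which encodes a microtubule-binding adaptor, also spans all of PRDX2 in the annotation used here.

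PRDX3 (ENSG00000165672, chromosome 10, 119167703 to 119178833), the main peroxidase of the mitochondrial matrix, had 33.6, 5.23 and 96.7 CPM against 18.8, 11.1 and 48.9 CPM. Its blocked log2 fold change of −0.39 ± 0.29 (adjusted p = 0.815) became 0.19 when the scaling factors came from genes far above background. PRDX4 (ENSG00000123131, chromosome X, 23664262 to 23686399), which acts in the endoplasmic reticulum, had 42.4, 6.03 and 73.5 CPM against 27.8, 8.54 and 41.4 CPM. Its blocked value was −0.41 ± 0.26 (adjusted p = 0.715), and it too changed sign with those factors, to 0.15. In control replicate 2 PRDX4 lay at 0.854 times background. For these 4 genes, control replicates 1 and 3 lay above the mutant library of the same number, and replicate 2 went the other way.

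PRDX5 (ENSG00000126432, chromosome 11, 64318088 to 64321811) was the other member called lower in the blocked fit. It had 30.1, 3.95 and 83.1 CPM in control replicates 1, 2 and 3 and 11.4, 2.31 and 38.6 CPM in the mutant. It was lower in 3 of 3 pairs, by 1.40, 0.76 and 1.11 on the log2 scale. The blocked log2 fold change was −1.16 ± 0.26 (SE, n = 3 pairs; adjusted p = 0.0123), and 8.01% of genes far above background were as low or lower. Without pairs 1, 2 and 3 in turn the value stayed at −1.02, −1.08 and −1.20, but the call was lost each time (adjusted p = 0.705, 0.140 and 0.572). Without the block the value was −1.15 ± 1.15, and it turned to 0.27 without control replicate 3. With factors from genes far above background the blocked value was −0.58 (adjusted p = 0.532). In mutant replicate 2 it rested on 10 counts, 2.02 times background (0.968 to 3.71).

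Set against the other 5 peroxiredoxins within each library, PRDX5 had 11.0, 11.8 and 15.8 counts per 100 in the control and 8.45, 4.33 and 14.9 in the mutant. With background taken off, the ratio was 11.2, 20.2 and 15.9 in the control and 8.74, 3.39 and 15 in the mutant. The groups overlapped on both ratios. In replicate 3, with the most counts, the values of 15.8 and 14.9 differed little. PRDX6 (ENSG00000117592, chromosome 1, 173477266 to 173488807) had 57.1, 9.78 and 111 CPM against 26.7, 10.2 and 56.0 CPM. Its blocked log2 fold change was −0.74 ± 0.26 (adjusted p = 0.184).

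None of the thioredoxins, which hand electrons to the peroxiredoxins, passed the test, nor did their reductase. TXN (ENSG00000136810, chromosome 9, 110243811 to 110256640) had 23.8, 6.30 and 146 CPM in the control and 21.8, 7.16 and 80.0 CPM in the mutant. It varied far more between replicates than between groups. The blocked value was −0.34 ± 0.26 (adjusted p = 0.834), with pair differences of −0.13, 0.18 and −0.87. TXN2 (ENSG00000100348, chromosome 22, 36467036 to 36482030), the mitochondrial thioredoxin, had 25.2, 9.38 and 53.9 CPM against 18.5, 6.0 and 29.1 CPM. It was lower in 3 of 3 pairs, at −0.45, −0.64 and −0.89, with a blocked value of −0.67 ± 0.24 (adjusted p = 0.202).

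TXNRD1 (ENSG00000198431, chromosome 12, 104215779 to 104350305) varied least between libraries of the 10. It had 88.0, 60.2 and 168 CPM in the control and 69.7, 44.8 and 142 CPM in the mutant, and a blocked value of −0.33 ± 0.27 (adjusted p = 0.841). All 3 pairs differed by less than 0.5 on the log2 scale. It spans 134527 bases with 6708 bases of exon, so background weighs on it more than on the short peroxiredoxin genes. Relative to background, control replicates 1, 2 and 3 lay at 3.14, 1.40 and 22.5 times, and mutant replicates at 2.23, 1.08 and 22.4 times. The ribosomal protein pseudogene RPL18AP3 lies within its span and had 1121 counts in control replicate 3 and 507 in mutant replicate 3, or 16.0% and 6.64% of the TXNRD1 counts. With those taken off, an alternative chosen after seeing the data, the pair 3 difference moved from −0.25 to −0.09 and the blocked value from −0.33 to −0.25.

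TXNRD2, the mitochondrial reductase that serves TXN2, is no member and was named for that role. Its blocked log2 fold change was −0.22 ± 0.24 (adjusted p = 0.937). In pairs 1, 2 and 3 the differences were −0.34, −0.43 and −0.25 for TXNRD1 and −0.46, −0.21 and 0.01 for TXNRD2.

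**Figure D4:**
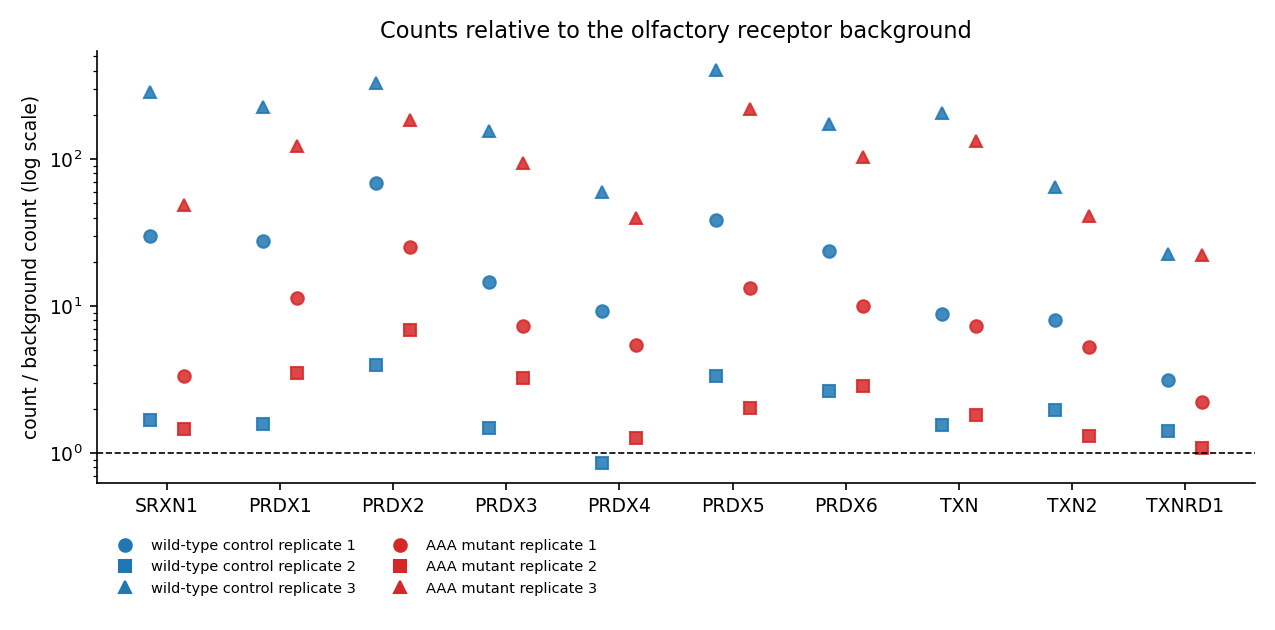
Count divided by the background count expected over the gene span, on a log scale, for each gene and library; blue symbols are wild-type control and red symbols AAA mutant, the shape gives the replicate number, and the dashed line marks background. In replicate 2 the 10 genes lay between 0.854 and 6.86 times background, and in replicate 3 between 22.4 and 401 times.

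Levels between genes were compared as CPM per kb of exon, with background taken off both the gene and the library total. Exon length joined the exons of all annotated transcripts of a gene. For PRDX2 it was 2093 bases, where the transcript used for the coding stretch has 987, and for PRDX5 both were 893. For SRXN1 both were 2698, but PRDX3 had 3417 against 1591 and TXNRD1 6708 against 3930. The order between genes therefore depends on the length used. In control replicate 3 TXN led with 101, followed by PRDX1 at 78.4 and PRDX5 at 73.3. PRDX6 (36.7), PRDX2 (34.9), SRXN1 (31.5) and PRDX4 (30.0) lay close together. PRDX3 (22.2), TXN2 (20.4) and TXNRD1 (18.9) were lowest. In control replicate 1 PRDX1 led with 69.9 and TXN had 29.5, so that the order of TXN moved by more than the distance to its neighbours. PRDX1 ranked 1 or 2 in replicates 1 and 3 of both groups. By joined exon length SRXN1 ranked 7, 8 and 6 among the 10 in the control and 10 in each mutant library, at 3.97, 2.7 and 4.63. Transcript lengths would raise PRDX3 and TXNRD1 against SRXN1, so its control ranks depend on the length used.

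The 19 annotated processed pseudogenes of the members had at most 156 counts each. The 4 pseudogenes of PRDX3 held 202 counts in control replicate 3, against 4013 for PRDX3, and 289 in mutant replicate 3, against 2635. These are raw counts, and mutant replicate 3 held more counts in total than control replicate 3, 73331652 against 61912640. A change of the pseudogenes was not tested. The 7 of TXN held 27 and 50 counts there, against 6081 and 4309. Of the runs of 50 bases in the member's transcript, 84.7% in SRXN1 also occurred in AL121758.1 and 28.0% in PRDX1 in MMACHC, which overlaps its 3′ end on the other strand. PRDX4, PRDX5 and TXNRD1 shared none with another annotated gene.

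The core of the NRF2 binding element, TGACNNNGC, was searched on both strands of the RefSeq promoter windows (GRCh38.p14, 250 bases before to 50 after a start). It occurred in 13.3% of 35116 windows. Windows were found for 7 members, and not for PRDX1, PRDX6 and TXN2. TXNRD1 was the member with a match, in both of its windows, and its matches are shown with the core, or its reverse complement, in capitals.
TXNRD1, chr12:104215670-104215698, plus strand: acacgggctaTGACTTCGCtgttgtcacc
TXNRD1, chr12:104215761-104215789, plus strand: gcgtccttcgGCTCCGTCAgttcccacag
TXNRD1, chr12:104286920-104286948, plus strand: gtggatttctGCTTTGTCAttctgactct
These letters were not in the windows of SRXN1, PRDX2 to PRDX5 and TXN.

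Other genes of peroxide and thiol metabolism were read from 5 lists, all of whose genes were tested. The 36 genes of the NRF2 pathway had a median log2 fold change of −0.30 in the blocked fit. The NRF2 targets GCLM, for glutathione synthesis, and NQO1, a quinone reductase, had −0.15 ± 0.25 (adjusted p = 0.972) and −0.31 ± 0.35 (adjusted p = 0.938). They were higher in pair 3, by 0.33 and 0.17. NQO1 lay at 1.73, 0.842 and 5.12 times background in control replicates 1, 2 and 3. Its mutant values were 0.860, 0.678 and 6.81 times. HMOX1, heme oxygenase, had −0.80 ± 0.30 (adjusted p = 0.242). KEAP1, which targets NRF2 for degradation, had −0.87 ± 0.26 (adjusted p = 0.0808) and NFE2L2, the NRF2 gene, −0.23 ± 0.28 (adjusted p = 0.948). These 5 genes were named for their roles and not by the rule on called genes. GCLM, NQO1 and HMOX1 thus ranged from −0.15 to −0.80. GCLM and HMOX1 lay at 1.36 to 5.34 times background in replicates 1 and 2 of both groups, and values so near background are weak. SRXN1 is not set beside them, since it was chosen for its decrease.

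The counts of called genes in the other 4 lists stand against 1.4% called lower among all tested genes and 8.19% among those far above background. Of 29 genes of the glutathione system, 2 were lower, the transferase GSTP1 (−1.0 ± 0.26; adjusted p = 0.0456) and the peroxidase GPX1 (−1.02 ± 0.27; adjusted p = 0.0478), with a list median of −0.25. GPX1 was also the called gene among 27 selenoproteins and factors for selenocysteine insertion (median −0.23). Of 19 enzymes that make or remove superoxide and peroxide, GFER, the sulfhydryl oxidase of the mitochondrial intermembrane space, was lower at −1.67 ± 0.28 (adjusted p = 0.000577), and the median was −0.27. Of 32 proteins with a thioredoxin fold or served by thioredoxin, TXNDC5, a protein disulfide isomerase of the endoplasmic reticulum, was lower at −1.31 ± 0.32 (adjusted p = 0.0243), and the median was −0.10. No gene of the 5 lists was called higher, and none was called with factors from genes far above background. Between 5 and 10 genes of each list lay far above background.

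By correlation of log2 CPM over the 6 libraries, which share the split by replicate number, the 5 genes most like SRXN1 among 17834 were UNC13B, GOT1, ITFG2-AS1, IP6K1 and PPP2R5D. Their r lay between 0.995 and 0.997. Their blocked values were −0.76, −0.75, −0.91, −1.59 and −1.30. These are not set beside the value of SRXN1, which was chosen for its decrease. Of the members, PRDX6 came closest (r = 0.940, rank 593) and TXN was least alike (r = 0.833, rank 4547). This measure follows the order of the libraries and not the size of the change.

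With TMM factors taken from genes far above background, 11 genes were called lower in the blocked fit (0.033%), and of the 10 members only SRXN1, which was chosen on this contrast. SRXN1 had −1.71 there, and PRDX1, PRDX3, PRDX4, TXN and TXNRD1 had values from 0.04 to 0.21. This scaling moved the median of all tested genes from −0.08 to 0.42.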

How the data were processed

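The deposited table holds counts per Ensembl gene ID in 6 columns, raw and not normalized. The tools named in the submitters' processing notes are FastQC, featureCounts and STAR 2.7.6a. Build, annotation, strand and overlap settings: not given in the sources. Symbols were found for 60401 of 60671 IDs, and otherwise taken from GENCODE release 29 (GRCh38), which held 58453 IDs and gave positions, spans and exons. Coordinates are of that reference.

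Members and gene lists were chosen with earlier results of these data known. edgeR 4.0.16 (R 4.3.3) was run on all genes: filterByExpr, TMM factors, quasi-likelihood F test, Benjamini-Hochberg adjustment, threshold 0.05, no block. Each SE is the absolute log2 fold change over the root of its F. A prior count of 1 entered log2 CPM. Same-numbered libraries deviated together from their group means (r = 0.41, 0.76 and 0.90 for numbers 1, 2 and 3). Of differently numbered libraries, control replicate 2 and mutant replicate 1 came closest, at r = 0.27. Background share also went with replicate number, and why same-numbered libraries were alike was not tested. The pairing comes from these correlations, not from the labels. Blocked values are therefore printed.

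Background was the count density of olfactory receptor genes times the span of a gene. Intervals are 95% exact Poisson. DESeq2 1.42.0 and limma 3.58.1 were alternatives. The test was run on simulated counts first. Named were all members, up to 4 called genes per list, and the 5 genes most like SRXN1 with an average log2 CPM of at least 2, by rule. A gene result from these lists is not reported here.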

Additional observations from a re-analysis of the deposited data

How the results depend on the processing

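The count of genes called, 0 of 33375 without the block, and the count of members called, 0 of 10, stayed at 0 in every fit without a block: RLE, upper quartile and far-above-background factors, DESeq2, limma-voom, no filter, and each library left out in turn. With the replicate block they were 469 genes and 2 members, with the block and RLE factors 576 and 2, with upper quartile factors 312 and 2, with factors from genes far above background 11 and 1, and with DESeq2 530 and 2. With the block but without 1 of the pairs, the count of genes ran from 0 (pair 3) over 37 (pair 1) to 259 (pair 2), and that of members from 0 (pair 3) to 1. It was 0 for both with background subtracted. SRXN1 was lower in 21 of 21 settings, a description only, since it was chosen for its decrease in these libraries. Its values ran from −2.71 to −1.71 in the 9 with the block and from −3.59 to −1.30 in the 12 without. It was called in 7 of those 9, not without pair 3 or with background subtracted, and in 0 of the 12. PRDX5 was called in 4 of the 9 with the block.

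Signs changed for members not called with the block, except PRDX2, and, without the block, for PRDX5. Without the block, factors from genes far above background gave PRDX3 0.18, PRDX4 0.16 and TXN 0.048. With the block they gave PRDX1 0.037, PRDX3 0.19, PRDX4 0.15, TXN 0.21 and TXNRD1 0.16. Subtracted background gave PRDX3 0.14 and PRDX4 0.62 in the paired fit. With 1 library left out and no block, log2 fold changes ran from −1.71 to 0.21 for PRDX1, −1.56 to 0.64 for PRDX3, −1.17 to 0.29 for PRDX4, −2.44 to 0.27 for PRDX5, −1.63 to 0.089 for PRDX6, −1.97 to 1.5 for TXN, −1.21 to 0.24 for TXN2 and −0.84 to 0.40 for TXNRD1; the highest values are those without control replicate 3. PRDX3 was 0.011 with the block and without pair 3. The cause was not tested.

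Prior counts of 0.25 and 5 moved no pair difference beyond the spread between pairs. Late cornified envelope and keratin-associated protein genes gave a background 1.18 to 1.97 times higher, which exceeded all nuclear counts in both replicate 2 libraries (110% and 100.5%), and moved 48 of 60 levels relative to background.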
